A study of Mus musculus with 24 samples.

Results

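Drd2, Adora2a, Penk, Gpr6, Gpr52 and Sp9 are genes known for expression in the indirect-pathway medium spiny neurons of the striatum, and they were followed here across RNA-seq libraries of the mouse nucleus accumbens (NAc). The genes were chosen by name. Of the 6 genes, 5 were each matched to a row among the 52636 gene rows of the count files, and Gpr52 was not analysed here. The data came from 24 C57BL/6 mice (C57BL/6J in the study's methods) killed at postnatal day 50 (P50), with 1 library per mouse, in which bilateral NAc was taken as a 1.5 mm punch. The 4 groups of 6 mice were control (Con) females, Con males, and females and males raised under early-life stress (MSUS), in which pups were separated from dams that were themselves stressed unpredictably. MSUS ran daily from P1 to P14, with separations of 2 h per day in the deposited design text and 3 h per day in the study's methods. Con litters received no separation, and no animal of the 4 groups carried a transgene or received a drug according to the labels. Litters were assigned to a condition as a whole, and the labels do not tie an animal to its litter, so p values cover the spread between mice and take no account of shared litters.

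Medium spiny neurons are the GABAergic projection neurons of the striatum and come in a pair of main kinds. Direct-pathway neurons carry the dopamine D1 receptor, which raises cAMP, together with the peptide precursor genes Tac1 and Pdyn. Indirect-pathway neurons carry the dopamine D2 receptor, which lowers cAMP, and the adenosine A2A receptor, which raises it, so that dopamine and adenosine act against each other in these cells. They also make enkephalin from the precursor encoded by Penk, and Sp9 encodes a transcription factor needed for their formation. Gpr6 encodes an orphan receptor coupled to cAMP production that is concentrated in these neurons.

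On GRCm38 with GENCODE M21, Drd2 (ENSMUSG00000032259.8) lies on the plus strand of chromosome 9 at 49340627 to 49408177 and has 8 exon blocks. Adora2a (ENSMUSG00000020178.6) lies on the plus strand of chromosome 10 at 75316877 to 75334784, and Gpr6 (ENSMUSG00000046922.7) lies on the minus strand of the same chromosome at 41069977 to 41072285. Penk (ENSMUSG00000045573.9) lies on the minus strand of chromosome 4 at 4133531 to 4138819. Sp9 (ENSMUSG00000068859.5) lies on the plus strand of chromosome 2 at 73271925 to 73284706. All 5 are protein-coding genes, and the counts cover their annotated exons, coding and untranslated. Penk shares 233 exon bases with A830012C17Rik and Sp9 shares 270 with Cir1, each on the opposite strand, and the counts used here were those of the gene's own strand.

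The sequences just before the starts of the genes were described as well, and their relation to the levels was not tested. RefSeq windows on GRCm38.p6 were held for 3 of the 6 genes, and the 250 bases before the RefSeq start are given 5′ to 3′ in the direction of the gene. Capitals mark matches on either strand to the GC box (GGGCGG), the CACCC box (CACCC), the TATA box (TATAAA) and the core of the cAMP response element (TGACG). The windows are chr9:49340153-49340402 on the plus strand for Drd2, which ends before the GENCODE start, chr10:41072291-41072540 on the minus strand for Gpr6, and chr2:73271676-73271925 on the plus strand for Sp9.
Drd2: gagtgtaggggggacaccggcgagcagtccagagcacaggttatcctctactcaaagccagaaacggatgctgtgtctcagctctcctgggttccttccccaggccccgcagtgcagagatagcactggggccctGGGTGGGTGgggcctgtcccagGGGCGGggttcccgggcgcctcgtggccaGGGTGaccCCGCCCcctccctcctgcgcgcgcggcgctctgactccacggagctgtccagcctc
Gpr6: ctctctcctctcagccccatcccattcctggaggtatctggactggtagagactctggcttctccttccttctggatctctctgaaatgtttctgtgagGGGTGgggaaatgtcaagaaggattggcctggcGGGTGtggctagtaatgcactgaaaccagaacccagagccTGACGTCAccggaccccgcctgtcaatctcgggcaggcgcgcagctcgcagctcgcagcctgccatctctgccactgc
Sp9: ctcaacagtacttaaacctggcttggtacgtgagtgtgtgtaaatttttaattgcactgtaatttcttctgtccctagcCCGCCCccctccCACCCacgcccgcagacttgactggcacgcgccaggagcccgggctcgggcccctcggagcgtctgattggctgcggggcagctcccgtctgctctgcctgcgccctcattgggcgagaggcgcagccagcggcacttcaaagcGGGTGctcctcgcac
The Drd2 window held 2 GC boxes and 3 CACCC boxes, of which 2 overlapped by their last and first base. The Sp9 window held 1 GC box and 2 CACCC boxes. The Gpr6 window held 2 CACCC boxes and the palindrome TGACGTCA, which holds the cAMP response element core on both strands. None of the 3 windows held TATAAA. Over all 32851 windows of this length, 32.7% held a GC box, 52.0% a CACCC box, 12.4% a TATA box and 17.8% the cAMP response element core. The windows were 68.8% G and C for Drd2, 58.4% for Gpr6 and 62.4% for Sp9, against a median of 52.4% over all windows. A match is a run of letters and was not tested as a binding site.

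The libraries were made from total RNA after removal of ribosomal RNA, and each held between 39923666 and 70575745 sense counts. The share of uniquely mapped pairs that fell in no gene ran from 31.0% to 34.8% in Con females and from 36.3% to 43.9% in MSUS females, without overlap, and from 32.2% to 44.7% in males. Summed CPM (counts per 1000000 counts of the library, with TMM-normalized library sizes) of 8 markers of cortical excitatory neurons, a cell type not found in the NAc itself, ran from 9.85 to 1512 across the 24 libraries, and no marker was at 0 in any library. Genes shared by both kinds of projection neuron, such as Ppp1r1b, which encodes DARPP-32, were present at high level in every library. Con female 3 and MSUS male 6 stood apart, with the highest cortical sums (1512 and 1489 CPM) and the lowest summed CPM of 15 shared projection neuron genes (5765 and 6530). The group comparisons of the indirect-pathway genes below are therefore also given without Con female 3 or without MSUS male 6.

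Penk was by far the most abundant of the 5 genes when levels were expressed per length, as transcripts per 1000000 transcripts (TPM). Its level averaged 1887 ± 442 TPM (SD, n = 24), above the mean level of 99.9% of the 14313 genes with a mean of at least 100 counts. For comparison, Ppp1r1b averaged 974 ± 199 TPM.

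Adora2a averaged 229 ± 48.6 TPM and Drd2 201 ± 38.7 TPM. These receptor genes were close in level with the union of exons as length. Adora2a was above Drd2 in 22 of 24 libraries, with a ratio within libraries from 0.915 to 1.25 and a median of 1.15. The difference between their means was smaller than the SD of either, but that SD holds spread between libraries that both genes share. With the longest transcript as length, the means lay farther apart, at 220 TPM for Adora2a and 164 TPM for Drd2. Drd1, the D1 receptor gene of the direct pathway, averaged 272 ± 52.8 TPM.

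Gpr6 averaged 107 ± 22.1 TPM and was below Drd2 in 24 of 24 libraries. Sp9 was the lowest at 14.1 ± 2.30 TPM, and Gpr6 exceeded it by between 5.56-fold and 9.77-fold in every library. With the union of exons as length, the order Penk, Adora2a, Drd2, Gpr6, Sp9 held in every library except for 2 in which Drd2 exceeded Adora2a.

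Among the other receptors for the same ligands, the adenosine A1 receptor gene Adora1 averaged 101 ± 18.6 TPM, and the dopamine receptor genes Drd3 and Drd5 averaged 26.3 ± 7.06 and 3.94 ± 0.743 TPM. Drd4 averaged 0.137 ± 0.0593 TPM. The enkephalin receptor genes Oprd1 (delta) and Oprm1 (mu) averaged 25.6 ± 3.42 and 14.5 ± 2.48 TPM, with the union of exons as length. With the longest transcript as length they averaged 20.9 and 39.2 TPM, so their order depended on the length used. Penk was thus above both receptor genes for its product in mean level per length.

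**Figure D1:**
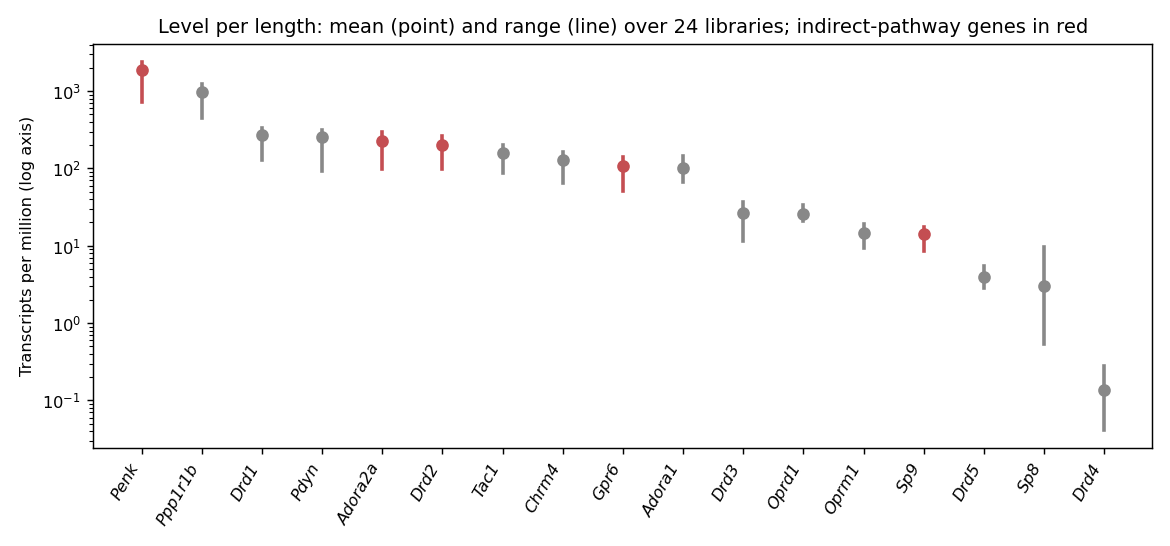
Level per length of the 5 indirect-pathway genes (red) and 12 related genes (grey), in TPM on a log axis. Points are means and lines run from the lowest to the highest of 24 libraries. Penk stands highest at 1887 and Sp9 lowest of the 5 at 14.1.

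Whether early-life stress changed the indirect-pathway genes in females was asked by comparing 6 MSUS with 6 Con females. None of the 5 genes passed the test, and their fitted folds lay close to 1. In CPM, which is used from here on for comparisons between libraries, Drd2 ran from 68.6 through a median of 155 to 178 in Con females and from 113 through 145 to 167 in MSUS females. The ranges overlapped almost wholly, with group means of 143 ± 38.3 in Con and 143 ± 17.9 in MSUS (SD, n = 6). The fitted log2 fold change was 0.0012 ± 0.18 (SE), with a 95% confidence interval of the fold from 0.757 to 1.32.

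Adora2a ran from 80.7 through 207 to 254 CPM in Con females and from 153 through 201 to 233 in MSUS females. The MSUS values lay inside the Con range. Its log2 fold change was 0.02 ± 0.22 (SE). Gpr6 ran from 25.0 through 56.8 to 70.9 CPM in Con females and from 42.9 through 53.6 to 64.9 in MSUS females, again inside the Con range, with a log2 fold change of 0.03 ± 0.20.

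Penk ran from 317 through 897 to 1085 CPM in Con females and from 647 through 999 to 1038 in MSUS females. Its mean was 829 ± 292 in Con and 908 ± 165 in MSUS, a log2 fold change of 0.14 ± 0.25, with a fold between 0.750 and 1.61 at 95% confidence. Sp9 ran from 12.7 through 21.3 to 23.3 CPM in Con females and from 16.1 through 19.8 to 21.1 in MSUS females, with a log2 fold change of -0.06 ± 0.13. For all 5 genes the difference was smaller than the spread between mice.

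By edgeR's quasi-likelihood test with Benjamini-Hochberg adjustment over all 20571 genes tested, 0 of 5 passed the threshold of 0.10, and the adjusted p values ran from 0.739 to 0.998. None had an unadjusted p under 0.05, and DESeq2 called none either. Over all genes tested, 25.1% were called in this comparison. The 5 genes differed from the bulk of the table in their spread, however. Their SD within groups was 0.26 for Sp9 and from 0.35 to 0.45 for the other genes on the log2 scale, against a median of 0.12 over 14313 genes. A given fold change was therefore less detectable in them than in a gene of median spread. The widest 95% interval, that of Penk, is given above, and the narrowest, that of Sp9, ran from 0.794 to 1.16 in fold.

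The lowest Con female weighed on these values. Without Con female 3, the log2 fold changes in females became -0.14 for Drd2, -0.14 for Adora2a, -0.11 for Gpr6, -0.03 for Penk and -0.16 for Sp9. All 5 were then below 0, and none passed the threshold. The smallest adjusted p was 0.128, for Sp9, at an unadjusted p of 0.0343.

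None of the 5 was called either when the level of projection neuron genes was entered as a covariate, an alternative chosen after the data were seen. With the mean log2 CPM of the 15 shared genes in the model, the standard errors in females shrank to between 0.03 and 0.08, and the log2 fold changes were -0.07 for Drd2, -0.05 for Adora2a, -0.03 for Gpr6, 0.06 for Penk and -0.11 for Sp9. Adjusted p values ran from 0.330 to 0.713. This model called 6711 genes in all. The cortical marker sum was lower in MSUS females, at 9.85 to 621 CPM with a median of 91.3, than in Con females, at 146 to 1512 with a median of 492. With the cortical score in the model, the 5 log2 fold changes ran from -0.34 for Adora2a to -0.21 for Sp9 and none was called. The part of tissue content in the fitted values was not tested beyond these models.

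In a bulk sample, fewer cells of a type and less RNA per cell cannot be told apart, and this applies to every value given here.

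In males, the question was the same, and again none of the 5 genes passed the test. Drd2 ran from 100 through 138 to 180 CPM in Con males and from 77.8 through 133 to 150 in MSUS males. The groups overlapped, and the lowest value was that of MSUS male 6. The log2 fold change was -0.14 ± 0.16 (SE), with a fold between 0.714 and 1.16 at 95% confidence.

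Adora2a ran from 137 through 194 to 237 CPM in Con males and from 101 through 182 to 219 in MSUS males, with a log2 fold change of -0.14 ± 0.17. Penk ran from 522 through 823 to 1040 CPM and from 442 through 793 to 985, with -0.09 ± 0.18. Gpr6 ran from 36.8 through 54.6 to 68.0 CPM and from 28.7 through 50.5 to 54.9, with -0.16 ± 0.17. In each of these genes the MSUS median lay below that of Con by less than the SD of either group.

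Sp9 ran from 14.9 through 19.9 to 23.2 CPM in Con males and from 11.8 through 17.9 to 21.6 in MSUS males, with a log2 fold change of -0.16 ± 0.13. In males, 0 of 5 genes passed the threshold and none had an unadjusted p under 0.05, with every adjusted p at 1.00 in edgeR and no call in DESeq2. The background was 0%, as no gene of 20691 was called in males, and 191 had an unadjusted p under 0.05.

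The sets of libraries, which the labels number 1 to 24, differed in direction in males. Among library numbers 1 to 12, MSUS males exceeded Con males by between 0.08 for Sp9 and 0.23 for Penk on the log2 scale. Among library numbers 13 to 24, which hold MSUS male 6, the difference ran from -0.48 to -0.42. Without MSUS male 6 the log2 fold changes were -0.03 for Drd2, -0.02 for Adora2a, 0.03 for Penk, -0.06 for Gpr6 and -0.07 for Sp9.

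In females the sets also differed. MSUS minus Con was above 0 for all 5 genes among library numbers 1 to 12, which hold Con female 3, at 0.08 for Gpr6 to 0.42 for Penk. Among numbers 13 to 24 it ran from -0.17 for Sp9 to 0.10 for Gpr6. No direction was thus shared by both sets in either sex, apart from Gpr6 and Penk in females.

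**Figure D2:**
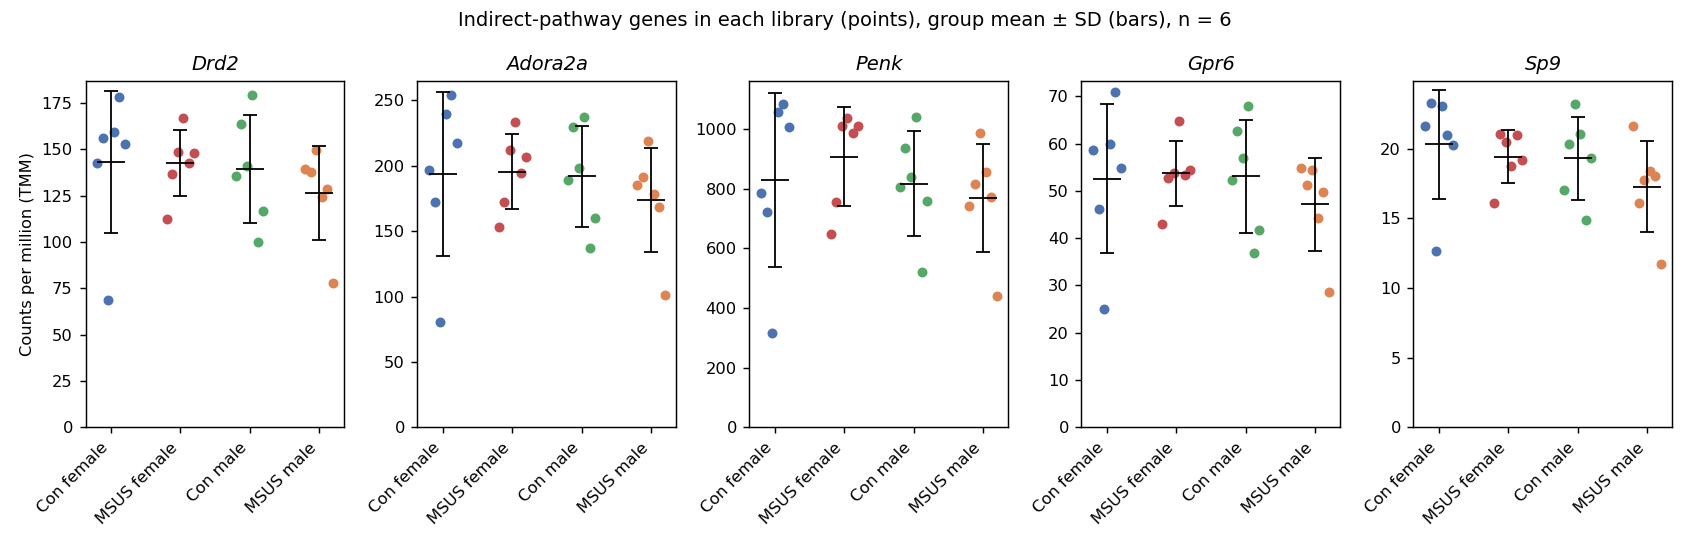
CPM (TMM) of the 5 genes in each library, with 1 panel per gene and groups along the horizontal axis. Points are mice, spread sideways only to separate them, and bars give the mean ± SD of 6 mice. All groups overlap for every gene, and Con female 3 and MSUS male 6 are the lowest points of their groups.

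Females and males were compared within each condition. In Con animals the log2 fold changes of females over males were 0.05 ± 0.21 for Drd2, 0.03 ± 0.24 for Adora2a, 0.03 ± 0.26 for Penk, 0.0019 ± 0.23 for Gpr6 and 0.09 ± 0.14 for Sp9. The number that passed was 0 of 5, with adjusted p values from 0.771 to 0.998 in edgeR, where 2.64% of 20641 genes were called. Without Con female 3 the values were 0.17 for Drd2, 0.16 for Adora2a, 0.18 for Penk, 0.12 for Gpr6 and 0.17 for Sp9. None was called then either. In MSUS animals the female values were higher in the fit by 0.17 ± 0.13 for Drd2, 0.17 ± 0.15 for Adora2a, 0.24 ± 0.17 for Penk, 0.18 ± 0.14 for Gpr6 and 0.17 ± 0.12 for Sp9. Again 0 of 5 passed, with adjusted p values from 0.680 to 0.732, where 0.135% of 20714 genes were called.

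These differences in MSUS animals also turned on MSUS male 6. Without it they were 0.07 for Drd2, 0.05 for Adora2a, 0.12 for Penk, 0.08 for Gpr6 and 0.08 for Sp9. None of the 5 genes had an unadjusted p under 0.05 in either sex comparison, and DESeq2 called none.

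The group-by-sex interaction, the MSUS effect in females minus that in males, was fitted on all 24 libraries. It was 0.13 ± 0.25 for Drd2, 0.15 ± 0.29 for Adora2a, 0.22 ± 0.32 for Penk, 0.19 ± 0.27 for Gpr6 and 0.09 ± 0.19 for Sp9, each on the log2 scale with its SE. The number called was 0 of 5, with adjusted p values from 0.704 to 0.805 and no unadjusted p under 0.05. The background was 0% of 21500 genes in edgeR, with 4031 genes at an unadjusted p under 0.05, and DESeq2 called 467 genes but none of the 5. The MSUS effect on indirect-pathway genes was thus not shown to differ between the sexes. Without Con female 3 the interaction was -0.0040 for Drd2, -0.00017 for Adora2a, 0.055 for Penk, 0.055 for Gpr6 and -0.0074 for Sp9. With the cortical score in the model all 5 interaction values turned below 0, from -0.21 for Penk to -0.09 for Gpr6, and none was called.

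**Figure D3:**
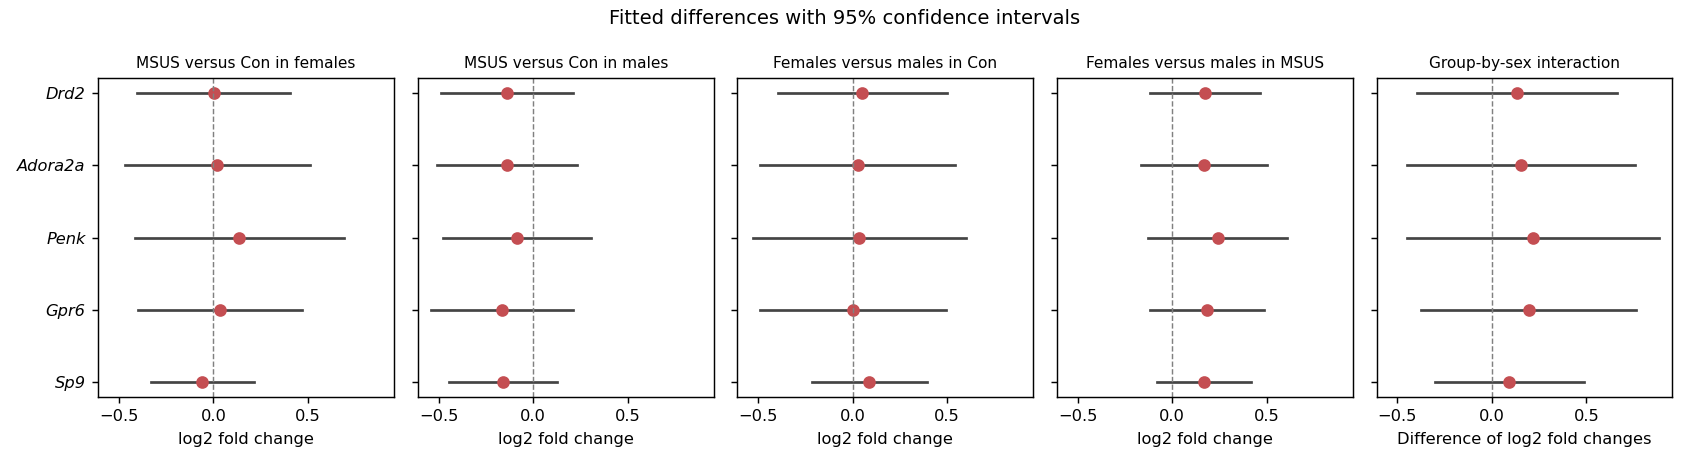
Fitted differences of the 5 genes in the 5 comparisons, as log2 fold changes (MSUS over Con, or females over males) and, for the interaction, as the log2 fold change in females minus that in males. Points are estimates and lines are 95% confidence intervals. Every interval includes 0.

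To set the indirect against the direct pathway within each library, ratios of counts were compared. Drd2 counts per Drd1 count ran from 0.510 to 0.700 in Con females and from 0.466 to 0.560 in MSUS females. The means were 0.555 ± 0.0722 and 0.501 ± 0.0346 (SD, n = 6), and the groups overlapped. The MSUS minus Con difference of mean log2 ratios was -0.14, with p = 0.0801 by a two-sided exact permutation test and 0.320 after adjustment over the 4 ratio tests, so that it did not pass.

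The highest ratio, 0.700, belonged to Con female 2, and without that library the difference was -0.073, with an exact permutation p of 0.160. Without MSUS female 4 the difference was -0.17 and passed, with an exact permutation p of 0.0130 and an adjusted p of 0.0519. The difference was -0.16 among library numbers 1 to 12 and -0.12 among numbers 13 to 24, which hold Con female 2. The other Con females of that set had ratios of 0.510 and 0.510, against 0.519, 0.560 and 0.489 in its MSUS females. In males, the ratio averaged 0.511 ± 0.0286 in Con and 0.514 ± 0.0367 in MSUS (SD, n = 6), a log2 difference of 0.0064 with an exact permutation p of 0.909 (adjusted 0.909). The smallest p that 6 against 6 allows is 0.00216.

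Penk counts per Tac1 count, which set a peptide precursor gene of each pathway against the other, averaged 5.89 ± 1.22 (SD) in the 6 Con females and 6.32 ± 1.45 in the 6 MSUS females. The difference of mean log2 ratios was 0.10, with an exact permutation p of 0.621 (adjusted 0.909). In males the means were 5.49 ± 0.964 and 5.62 ± 0.778, with a difference of 0.04 and an exact permutation p of 0.727 (adjusted 0.909). Both differences changed sign between the library sets, from 0.31 to -0.11 in females and from 0.13 to -0.04 in males. Without Con female 3 the difference in females was -0.01. In males, leaving out Con male 1, Con male 5 or MSUS male 4 also took the value below 0, to between -0.03 and -0.02.

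**Figure D4:**
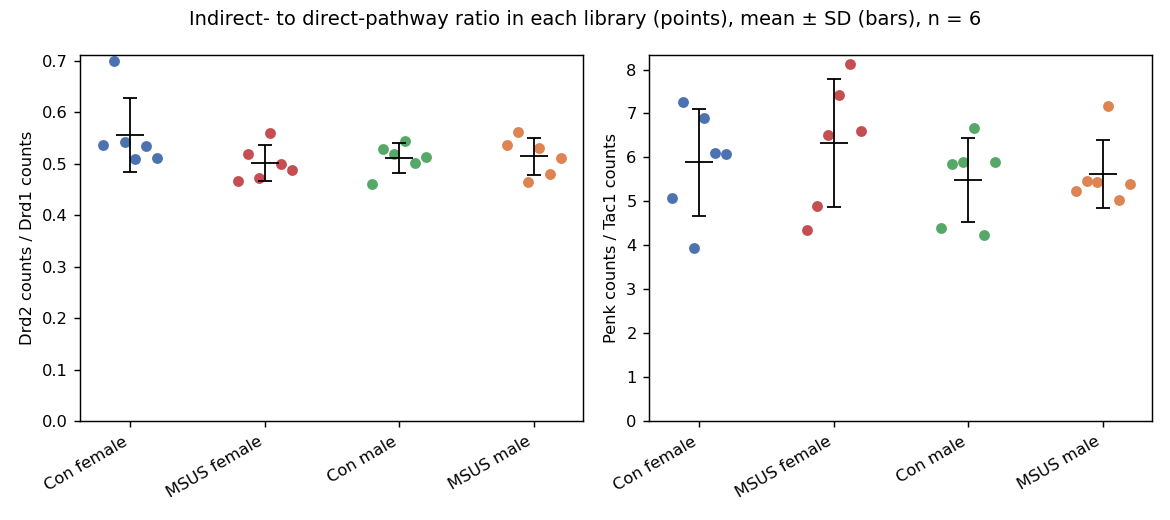
Drd2 counts per Drd1 count (left) and Penk counts per Tac1 count (right) in each library. Points are mice, spread sideways only to separate them, and bars give the mean ± SD of 6 mice per group. The ratio of 0.700 in Con female 2 stands above the other 23 libraries.

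The 5 genes rose and fell together from mouse to mouse. Across all 24 libraries, Con female 3 was lowest for Drd2, Adora2a, Penk and Gpr6, and MSUS male 6 was lowest for Sp9 and next to lowest for the other 4. Con male 5 came next above these for all 5 genes. Drd2 ran from 68.6 to 180 CPM over the 24 libraries, a 2.62-fold range, Adora2a spanned 3.15-fold, Penk 3.43-fold, Gpr6 2.84-fold and Sp9 1.98-fold.

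Log2 CPM of Drd2 and Adora2a correlated across the 24 libraries with Pearson's r = 0.97 and Spearman's rho = 0.91, each with a permutation p of 1e-05, the smallest that 100000 resamples can give, and an adjusted p of 2e-05 for r over 30 relations. Without Con female 3 and MSUS male 6, the libraries farthest from the median of Adora2a, r was 0.92. Within library numbers 1 to 12 and 13 to 24, r was 0.99 and 0.94. Among Drd2, Adora2a, Penk and Gpr6, r ran from 0.92 to 0.97 and stayed between 0.79 and 0.93 without the same 2 libraries.

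Sp9 followed the other genes less closely. Its r was 0.84 with Drd2, 0.80 with Gpr6, 0.78 with Adora2a and 0.75 with Penk, with adjusted permutation p values from 2e-05 to 0.000315. Without the 2 lowest libraries these fell to 0.62, 0.54, 0.48 and 0.45, and Spearman's rho with Penk over all 24 libraries was 0.36 with an adjusted permutation p of 0.103. The relation of Sp9 to Penk thus rested largely on Con female 3 and MSUS male 6.

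The genes of the direct pathway moved with them. Drd1 correlated with Adora2a at r = 0.97 (rho = 0.92), with Penk at 0.96 (0.89), with Gpr6 at 0.95 (0.83) and with Drd2 at 0.93 (0.81), each with a permutation p of 1e-05 for r and an adjusted p of 2e-05. Without Con female 3 and MSUS male 6 these r values lay between 0.80 and 0.90. For Sp9 and Drd1, r was 0.73 over all 24 libraries, where rho was 0.36 with an adjusted permutation p of 0.104. Without Con female 3 and MSUS male 6 this r was 0.36, so that the relation rested largely on those libraries.

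Correlations with the cortical score, the mean log2 CPM of the 8 markers, were negative. They ran from r = -0.66 for Penk (rho = -0.65, adjusted permutation p = 0.000315 for r and 0.0014 for rho) to r = -0.48 for Drd2 (rho = -0.35, adjusted permutation p = 0.0205 for r and 0.113 for rho, which did not pass). Without the 2 libraries farthest from the median of the score, MSUS female 5 and MSUS male 6, they were -0.62 and -0.42. Within library numbers 1 to 12 and 13 to 24, r was -0.69 and -0.62 for Penk and -0.59 and -0.34 for Drd2. No such relation was detected with the share of pairs in no gene, for which r ran from 0.16 to 0.24 with adjusted permutation p values from 0.303 to 0.457.

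**Figure D5:**
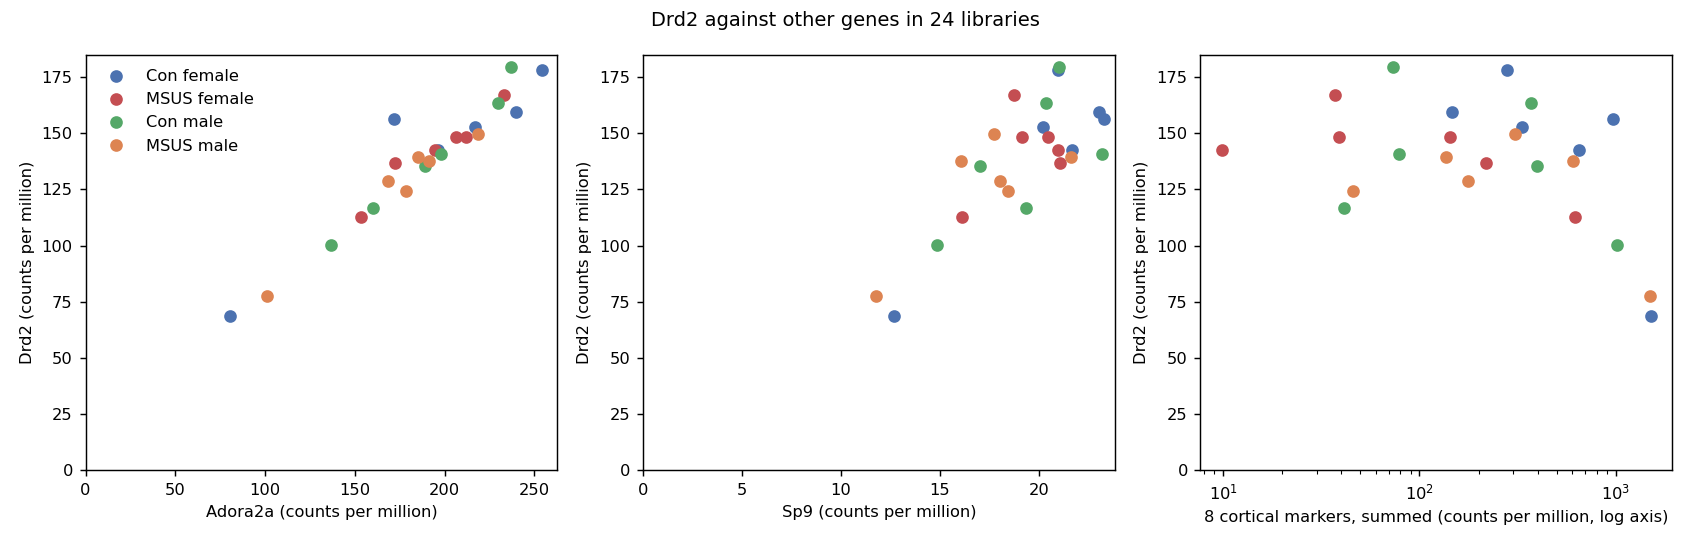
CPM of Drd2 against Adora2a (left), Sp9 (middle) and the sum of 8 cortical markers (right, log axis) in 24 libraries, coloured by group. Drd2 and Adora2a fall along a line (r = 0.97 on the log2 scale), and the 2 lowest Drd2 values belong to the 2 libraries with the highest cortical sums.

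To name the genes most like the 5, each gene's log2 CPM was centred on its group means and correlated over the 24 libraries with the mean of the 5 scaled profiles, as a description without a test. Among 14313 genes, the highest outside the 5 were Scube3 (r = 0.99), Ptpn5, which encodes the striatum-enriched phosphatase STEP (0.98), Adcy5, the main adenylyl cyclase of striatal neurons (0.98), Gng7, a G protein gamma subunit that works with it (0.98), and the potassium channel partner Kcnip2 (0.98). The lowest were Epha5 (-0.95), Slc39a6 (-0.94), Slc17a5 (-0.94), Vsnl1 (-0.94) and Slc9a9 (-0.94). The median over all genes was 0.04.

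For single genes, the closest were Ptpn5, Adcy5 and Ppp1r1b for Drd2 and Adcy5, Ppp1r1b and Pde1b for Adora2a, with r from 0.98 to 0.99. Ppp1r1b, Bcr and Adcy5 were closest to Penk (0.98 each), and Lrrtm3, Gng7 and Adora2a to Gpr6 (0.97 to 0.98). The closest to Sp9 were Sncaip (0.95), Idh2 (0.93) and Tle1 (0.93). Of these, Adcy5, Ppp1r1b, Pde1b and Gng7 are on the list of genes shared by both kinds of projection neuron.

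Lists of related genes were described in the same way. The median r with the mean profile was 0.93 for the 15 genes shared by both projection neurons, with a range from 0.71 to 0.98, and 0.84 for the 9 direct-pathway genes. The 5 cholinergic interneuron markers, another striatal cell type, had a median of 0.78. The 7 cortical markers with enough counts all lay below 0, with a median of -0.57, as did the 6 oligodendrocyte markers, with -0.59. Other genes listed for the indirect pathway did not form a block, with Ptprm at 0.81, Upb1 at 0.64, Plxdc1 at -0.07 and Grik3 at -0.69.

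Striatal transcription factor genes were divided. Six3, which acts with Sp9 in forming indirect-pathway neurons, had r = 0.94, as did Dlx6, and Zfp503 and Dlx5 had 0.93 and 0.90. The genes Sp8, Dlx1 and Dlx2 lay between -0.58 and -0.33.

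Genes around the 5 were compared between MSUS and Con females from the fixed lists. Over all genes tested, 25.1% were called in this comparison and 11.9% were called lower in MSUS, and the counts that follow are descriptions to be read against these shares, with nothing particular to a list drawn from them. Of 24 genes of D2 and A2A receptor signalling, 5 fell and none rose. They were Gnao1, the alpha subunit of the G protein Go (log2 fold change -0.20 ± 0.04, adjusted p = 0.00831), Prkaca, a catalytic subunit of protein kinase A (-0.15 ± 0.04, adjusted p = 0.0189), Gnb1, a G protein beta subunit (-0.20 ± 0.06, adjusted p = 0.0352), Grk2, a kinase that desensitizes receptors (-0.26 ± 0.08, adjusted p = 0.0393), and the potassium channel subunit Kcnj9. Gnao1 ran from 775 to 861 CPM in Con and from 683 to 750 in MSUS females, without overlap. The median log2 fold change of the list was -0.03, against -0.0027 over all genes tested. All 5 that fell ran against the mean profile of the indirect-pathway genes across libraries, with r from -0.84 for Kcnj9 to -0.37 for Gnao1. With the cortical score in the model, 1625 genes were called over the whole table, against 5156 without it. The part of tissue content in these falls was not tested.

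Of 8 genes that process, break down or receive enkephalin, 4 fell in MSUS females and none rose, with a median of -0.18. Over all genes tested, 11.9% were called lower. Pcsk1n, an inhibitor of prohormone convertase, ran from 193 to 209 CPM in Con and from 148 to 191 in MSUS females, and Pcsk2, a prohormone convertase, from 345 to 411 and from 275 to 326. Both pairs of ranges lay apart. Their log2 fold changes were -0.26 ± 0.05 each, with adjusted p values of 0.00789 and 0.00887. Cpe, the carboxypeptidase that trims the peptides, fell by 0.19 on the log2 scale (SE 0.05, adjusted p = 0.0235), and Dpp3, a peptidase that degrades them, fell by 0.17 (SE 0.05, adjusted p = 0.0278). The 4 genes that fell had r with the mean profile of the indirect-pathway genes from -0.73 for Cpe to 0.03 for Pcsk1n. Penk itself did not pass the test, and the receptor genes Oprd1 and Oprm1 did not either.

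Of 9 adenosine genes, 2 fell, where 11.9% of all genes tested were called lower. Adora1 ran from 157 to 220 CPM in Con and from 105 to 166 in MSUS females, with a log2 fold change of -0.43 ± 0.11 and an adjusted p of 0.0211, and the nucleoside transporter gene Slc29a2 fell by 0.21 (SE 0.05, adjusted p = 0.0199). Among developmental transcription factor genes, Dlx2 fell by 0.58 on the log2 scale (SE 0.20, adjusted p = 0.0690). Of 4 other genes listed for the indirect pathway, Plxdc1 fell by 0.20 (SE 0.08, adjusted p = 0.0986). None of the 9 direct-pathway genes, the 15 shared genes or the 3 other dopamine receptor genes tested was called in females, with medians of 0.07, 0.05 and 0.13.

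Markers of other cell types were counted in the same way, against the same 25.1% called and 11.9% called lower over all genes. The cortical list had a median of -1.83, with 2 of 8 called lower, the oligodendrocyte list a median of -0.26 with 4 of 6 lower, and the GABAergic interneuron list a median of -0.33 with 2 of 6 lower. Among astrocyte markers 1 of 6 was lower, and none of the 5 cholinergic, 5 microglia or 5 endothelial markers was called. With the share of pairs in no gene as a covariate, which does not overlap between Con and MSUS females, no gene of any of these lists was called, nor was any gene of the whole table.

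In males and in the interaction, no gene of any list passed. Between females and males, Pcsk1n was higher in Con females than in Con males (log2 fold change 0.21 ± 0.04, adjusted p = 0.0584), and the oligodendrocyte gene Opalin differed between MSUS females and MSUS males, with the lower level in females (-0.34 ± 0.05, adjusted p = 0.00803). No other listed gene was called in the sex comparisons.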

How the data were processed

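RNA-seq counts from the NAc of 24 mice were used. The authors aligned 100 bp read pairs to mm10 with STAR 2.6.1b and GENCODE M15 and deposited STAR's unnormalized counts per gene, in total and for each strand; the reverse-strand counts (sense) were used. Pairs in no gene were left out of library sizes. Of 52636 gene rows, 52489 were matched to GENCODE M21.

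Genes were filtered with filterByExpr (minimum count 10), normalized by TMM and tested with edgeR 4.0.16 (robust quasi-likelihood F test, R 4.3.3), with a Benjamini-Hochberg threshold of 0.10. TPM used the union of exons, with the longest transcript as an alternative. Ratios were compared by exact permutation tests, and correlations used 100000 permutations (scipy 1.17.1). For list genes, at most 4 per list and comparison were named with values, those of smallest p. The 5 highest and lowest genes by correlation were named, and 3 for each member. The procedure was tested on simulated data, in which 79.8% of 2-fold changes and 61.6% of 1.5-fold changes were recovered in a simulated comparison of 20350 genes. The changed genes were drawn at random, and counts were simulated independently for each gene. The 5 indirect-pathway genes had a larger SD within groups than 85.2% to 96.3% of genes, so these rates do not give the power for them. Alternatives were DESeq2 1.42.0 and its size factors, other filters, unstranded counts, covariates, the replicate block, all 24 libraries in 1 fit, a threshold of 0.05, and each library left out. Estrous stages were not used, because the labels give a stage to only part of the females and also give stages to males. The paper states that each female group held high- and low-estrogenic mice in equal number. Its female model included estrous status, which was left out here. The genes and lists were chosen with earlier results of these data known. Libraries of a group differed by more than sampling noise (chi-square per gene at least 6.34 over 60 pairs). A gene of the developmental list is not reported here.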

Additional observations from a re-analysis of the deposited data

Results flagged for a closer look

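In groups of 6 libraries, a value was singled out when its gap to the nearest other value, as a share of the group's range, exceeded Dixon's 95% critical value. This was met 5 times in 28 groups. Chance gives about 1 in 20 for a single group. The 28 groups share libraries and hold correlated genes, so the count cannot be set against that rate. Drd2 in Con female 3 was far below its group at 68.6 CPM, as was Sp9 in the same library at 12.7 CPM. Drd2 in MSUS male 6 was far below its group at 77.8 CPM. These libraries also had the highest cortical marker sums, 1512 and 1489 CPM, and the lowest level of shared projection neuron genes, and the part of tissue content in the low values was not tested. The ratio of Drd2 to Drd1 counts was far above its group in Con female 2, at 0.700. The ratio of Penk to Tac1 counts was far above its group in MSUS male 4, at 7.17.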

How the results depend on the processing

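The number of the 5 genes called was 0 in every comparison and every alternative run, including DESeq2, the replicate block and each library left out. Over 680 alternative fits of 1 gene in 1 comparison, 71 had the other sign, none passed the threshold and the smallest adjusted p was 0.128. The Drd2 to Drd1 ratio in females passed without MSUS female 4 (difference -0.17, adjusted exact permutation p = 0.0519). With each library left out in turn the ratio differences ran from -0.174 to -0.073 (Drd2 to Drd1, females, where -0.073 was without Con female 2), -0.02 to 0.03 (males), -0.01 to 0.20 (Penk to Tac1, females) and -0.03 to 0.10 (males). Between Con and MSUS females, r of same-numbered mice ran from -0.45 to 0.50, with a median of 0.19 and 5 pairs over 0.1. Between Con and MSUS males the median was -0.19, with 2 pairs over 0.1. These values do not settle whether the numbers pair mice, and the main fits did not take them to. With the replicate block, 3800 genes were called in females and 12 between Con females and males, and the Drd2 to Drd1 difference in females was -0.14.

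The fitted values of the 5 genes in females moved with the covariate, although none was called. With the cortical score and with spliced share, the log2 fold changes were -0.26 and 0.41 for Drd2 and -0.34 and 0.42 for Adora2a. They were -0.25 and 0.49 for Gpr6, -0.31 and 0.50 for Penk, and -0.21 and 0.03 for Sp9. Calls over the whole table also depended on the setting. In females, 5156 genes were called, against 0 with spliced share or the share of pairs in no gene as a covariate, 1625 with the cortical score, 3126 at a threshold of 0.05, and 3102 to 5737 with each library left out. Between Con females and males, 544 were called, against 1511 by DESeq2, 1362 without regard to strand, 1623 with the shared projection neuron score, 338 without a filter, 62 with all libraries in 1 fit, 32 at 0.05, 29 with the cortical score, 11 and 10 with the shares in no gene and spliced, and 20 to 1395 with a library left out. Between MSUS females and males, 28 were called, against 167 by DESeq2, 71 with library set, 16 with at least 10 counts in every library, and 14 to 64 with a library left out. For the interaction, 0 were called, against 467 by DESeq2 and up to 3031 with a library left out. The cause was not tested.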
